A study of Mus musculus with 6 samples.

Results

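The EGR, NR4A and KLF early response factors are transcription factors whose genes cells switch on within minutes of a signal, without first making new protein. The 10 genes described here were taken by name and are Egr1, Egr2, Egr3, Nr4a1, Nr4a2, Nr4a3, Klf4, Klf6, Klf10 and Myc. All 10 were measured, out of 22180 genes on the array, each by a single probe set. They were read in liver of 3 ErbB4-/- mice and 3 wild-type control mice, with 1 single-colour array per mouse. The ErbB4-/- mice are full mutants kept alive through embryonic life by a transgene that overexpresses ErbB4 in the heart (HER4heart), and that line was backcrossed to C57BL/6J. The controls are C57BL/6J mice without the mutation, and the labels do not say that they carry the transgene, so loss of ErbB4 and presence of the transgene cannot be told apart. Every mouse of both groups had received DEN, the liver carcinogen diethylnitrosamine in the usual meaning of the abbreviation, on postnatal day 14. The treatment protocol sets dissection at 32 weeks for all mice. The treatment characteristic instead gives 35, 36 and 37 weeks for ErbB4-/- replicates 1 to 3, and 32, 33 and 34 weeks for control replicates 1 to 3.

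Growth factor receptors of the ErbB family signal through RAS and ERK to the serum response factor SRF and its ELK partners, which switch on Egr1 and other immediate early genes. Cyclic AMP and calcium reach the NR4A genes through CREB. EGR proteins bind GC-rich DNA with zinc fingers, NR4A proteins are orphan nuclear receptors that work without a classical ligand, KLF proteins bind GC and CACCC boxes, and MYC pairs with MAX to drive growth genes. In liver these genes are known to respond to feeding hormones, injury and partial hepatectomy.

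The promoters of the 3 NR4A genes and of Egr2 are shown. Nr4a1 had the largest difference among the 10 factors while Nr4a2 and Nr4a3 had small ones. Egr2 is the only EGR gene whose windows were searched. Each sequence is from RefSeq, build GRCm38.p6, and runs 5′ to 3′ over 250 bases before and 50 bases from the start site. Capitals mark TGACG, the core of the cyclic AMP response element to which CREB binds, on either strand (CGTCA on the other), and the CArG box to which SRF binds.
Nr4a1, chr15:101266596-101266895, plus strand: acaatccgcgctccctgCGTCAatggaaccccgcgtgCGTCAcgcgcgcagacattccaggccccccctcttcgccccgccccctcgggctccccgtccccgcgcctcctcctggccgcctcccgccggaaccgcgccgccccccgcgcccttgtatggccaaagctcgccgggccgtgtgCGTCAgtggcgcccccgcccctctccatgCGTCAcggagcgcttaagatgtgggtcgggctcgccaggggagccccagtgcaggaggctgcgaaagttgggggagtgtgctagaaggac
Nr4a2, chr2:57123954-57124253, minus strand: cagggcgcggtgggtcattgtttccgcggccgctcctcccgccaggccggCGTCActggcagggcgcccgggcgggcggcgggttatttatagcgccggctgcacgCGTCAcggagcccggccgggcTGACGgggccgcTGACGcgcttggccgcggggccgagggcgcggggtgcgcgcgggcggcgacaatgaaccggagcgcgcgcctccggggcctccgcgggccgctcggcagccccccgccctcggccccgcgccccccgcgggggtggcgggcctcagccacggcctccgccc
Nr4a3, chr4:48045055-48045354, plus strand: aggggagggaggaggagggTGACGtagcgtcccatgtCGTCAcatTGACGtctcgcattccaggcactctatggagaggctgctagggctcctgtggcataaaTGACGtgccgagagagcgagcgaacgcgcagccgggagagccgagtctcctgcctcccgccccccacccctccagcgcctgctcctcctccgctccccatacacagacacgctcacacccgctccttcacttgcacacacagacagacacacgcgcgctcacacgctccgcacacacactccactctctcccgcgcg
Egr2, chr10:67537680-67537979, plus strand: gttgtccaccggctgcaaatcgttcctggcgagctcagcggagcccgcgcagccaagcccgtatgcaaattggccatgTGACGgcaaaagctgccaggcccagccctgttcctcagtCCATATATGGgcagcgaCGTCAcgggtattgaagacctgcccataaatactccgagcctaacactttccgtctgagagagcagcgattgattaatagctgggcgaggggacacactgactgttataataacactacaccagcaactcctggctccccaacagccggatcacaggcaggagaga
Windows of 6 of the 10 genes were searched, namely Nr4a1, Nr4a2, Nr4a3, Egr2, Klf4 and Klf6. The 3 NR4A windows each held 4 copies of TGACG, and at least 4 copies were found in 0.232% of the 32817 windows of all genes. One or more copies were found in 20.8% of all windows. Any bearing of these copies on the array values was not tested. The CArG box CCATATATGG of Egr2 lay -133 to -124 bases from the start site of the window printed. That window is 1 of 3 overlapping Egr2 windows with the same matches. A further Egr2 window, from base 67537316, held another CArG box, CCTTTTTTGG, at -72 to -63, and no TGACG. The Egr2 window from base 67535249 held neither. A CArG box was found in 1.63% of all windows and in none of the Nr4a1, Nr4a2, Nr4a3, Klf4 and Klf6 windows. The full element TGACGTCA, present in 1.79% of all windows, was in none of the member windows searched, which do not include Egr1. The EGR site GCGGGGGCG was found once in Nr4a1 and once in Klf4, against 2.91% of all windows. A match is a description of letters only.

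Levels are log2 values as deposited, comparable between arrays but not between genes, and differences are ErbB4-/- minus control. Hepatocyte markers averaged 12.21 to 12.29 over the ErbB4-/- arrays and 12.22 to 12.32 over the control arrays. Their mean was thus alike on all 6 arrays, which does not by itself check the tissue label. The targeted gene Erbb4 measured 4.75, 5.36 and 5.61 in ErbB4-/- replicates 1 to 3, against 5.42, 5.73 and 5.42 in control replicates 1 to 3. These values overlap, and the part of the gene that its probe set reads was not examined here, so they do not check the labels. One array of each group stood apart. ErbB4-/- replicate 3 had 33.35 on the first principal component (36.11% of the variance), against 3.46 and 5.44 for the other ErbB4-/- arrays and -21.46 to -6.96 for the controls. Control replicate 1 had a mean of 7.25 over 10 male-biased liver genes, against 10.65 to 10.94 for the ErbB4-/- arrays and 10.86 and 10.83 for control replicates 2 and 3. Its mean over 8 female-biased liver genes was 7.37, against 5.76 to 5.996 for the ErbB4-/- arrays and 5.81 and 5.84 for the other controls. It was the highest of the 6 arrays for 4 of these 8 genes. Differences of the members and medians of the lists are given with all 6 arrays and without ErbB4-/- replicate 3 and control replicate 1. So are differences of other named genes where they move by over 1.5 times.

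No member passed the test across all genes (limma, Benjamini-Hochberg adjusted p between 0.760 and 0.908 for the 10 members), and 1 gene of 22180 passed, which is 0.00451%. At an unadjusted p under 0.05, 1 of the 10 members, Nr4a1, was lower, against 2.94% of all genes, and 0 were higher, against 2.77%. The difference was below 0 for 8 of the 10 members, against 45.3% of all genes, and the median was -0.54, against 0.01 over all genes. The groups did not overlap, with every ErbB4-/- value below every control value, for 3 members, Egr1, Egr2 and Nr4a1, against 3.81% of all genes. None had every ErbB4-/- value above the controls, against 4.52% of all genes. A difference of at least 2-fold downward was measured for 2 members, Egr1 and Nr4a1, against 0.514% of all genes. For both the groups also did not overlap, against 0.347% of all genes.

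**Figure D1:**
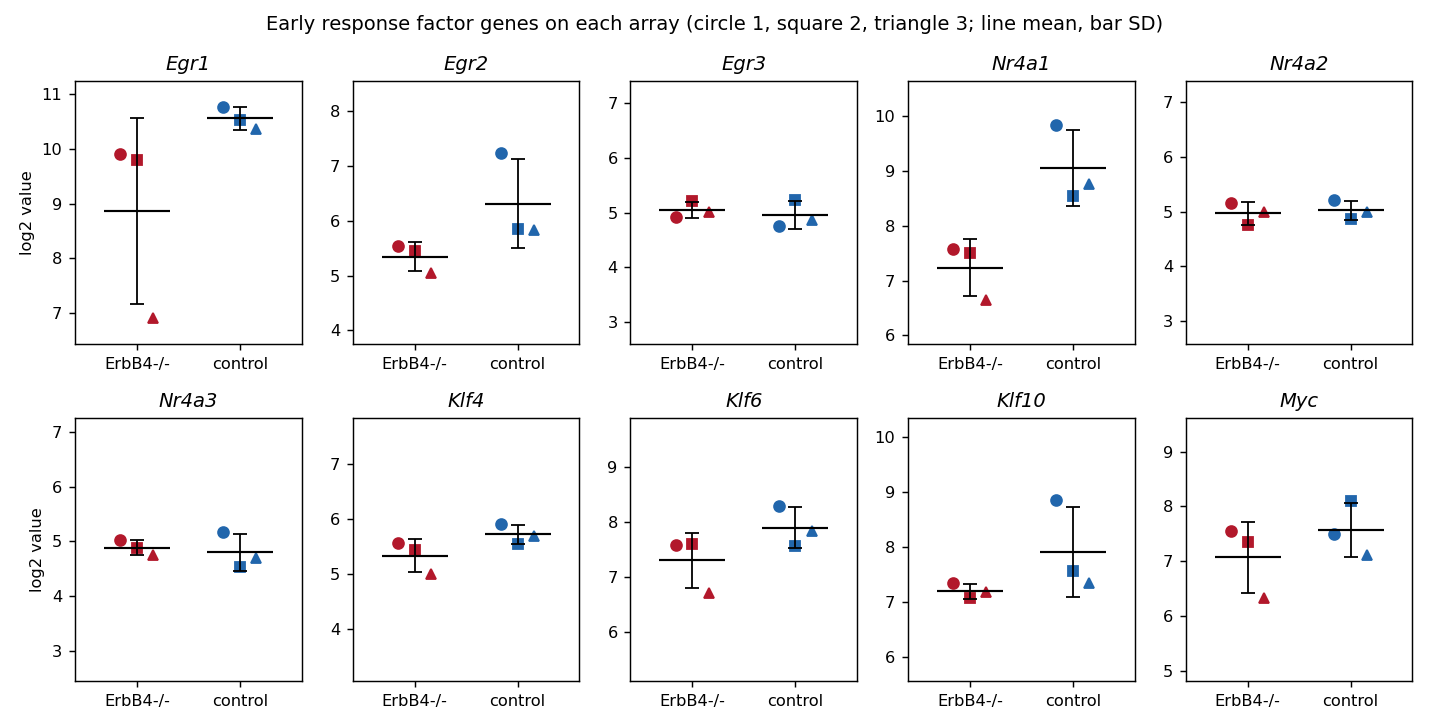
Log2 value of each of the 10 genes on each array, with ErbB4-/- mice on the left and control mice on the right of every panel. Points are arrays (circle replicate 1, square replicate 2, triangle replicate 3), the line is the mean of 3 and the bar its SD, and all panels span the same number of log2 units. Egr1, Egr2 and Nr4a1 have no ErbB4-/- point at or above a control point, while Egr3, Nr4a2 and Nr4a3 are flat.

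Among the EGR factors, Egr1 and Egr2 had lower values in every ErbB4-/- array and Egr3 did not. Egr1, the family member most readily induced by growth factors, measured 9.90, 9.80 and 6.90 in ErbB4-/- replicates 1 to 3, against 10.77, 10.53 and 10.36 in control replicates 1 to 3. One array, ErbB4-/- replicate 3, lay 2.95 below the mean of the other ErbB4-/- arrays, while the 3 controls lay within 0.41 of each other. The difference was -1.68 with a standard error of 0.84 (95% interval -3.76 to 0.40, adjusted p = 0.760), and Egr1 had the 22nd lowest difference of 22180 genes. Without ErbB4-/- replicate 3 it was -0.70, and without control replicate 1 as well it was -0.59. Egr2, known as Krox20 from hindbrain and myelinating Schwann cells, measured 5.54, 5.45 and 5.05 in ErbB4-/- liver, against 7.24, 5.85 and 5.83 in control liver. Here a control array was the extreme one: control replicate 1 lay 1.40 above the mean of the other controls. The difference was -0.96 with a standard error of 0.42 (95% interval -1.997 to 0.07, adjusted p = 0.760), -0.49 without control replicate 1 and -0.35 without ErbB4-/- replicate 3 as well. Egr3, an effector of antigen receptor signals in T cells, measured 4.92, 5.21 and 5.02 in ErbB4-/- liver, against 4.76, 5.24 and 4.87 in control liver. The groups overlapped in full, and the difference of 0.09 had an interval of -0.27 to 0.46. Without ErbB4-/- replicate 3 and control replicate 1 it was 0.01.

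The EGR corepressors Nab1 and Nab2, which bind EGR proteins and of which Nab2 is itself an EGR target, showed small differences. Nab1 measured 8.02, 7.92 and 7.94 in ErbB4-/- liver, against 8.09, 8.02 and 8.08 in control liver, which differ by -0.11 (standard error 0.05). Nab2 measured 8.20, 8.14 and 8.11 in ErbB4-/- liver, against 8.33, 8.30 and 8.20 in control liver, which differ by -0.13 (standard error 0.06), and by -0.08 without ErbB4-/- replicate 3 and control replicate 1. The groups of both overlapped and neither passed (adjusted p = 0.760 for each). Egr4, the remaining family member, had a difference of -0.05, and of -0.07 without both arrays, at a level of 4.92 ± 0.02 in ErbB4-/- and 4.97 ± 0.09 in control liver (SD, n = 3 each).

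Among the NR4A receptors, Nr4a1 alone showed a separation of the groups. Nr4a1, or Nur77, which in liver is known to be induced by glucagon through cyclic AMP, measured 7.57, 7.50 and 6.65 in ErbB4-/- replicates 1 to 3, against 9.83, 8.54 and 8.77 in control replicates 1 to 3. The highest ErbB4-/- value lay 0.97 below the lowest control value. The difference was -1.81 with a standard error of 0.42 (95% interval -2.86 to -0.76), the 16th lowest of 22180 genes. The unadjusted p was 0.00594 and the adjusted p 0.760, so the gene did not pass. Leaving out each array in turn gave differences between -2.06, without control replicate 2, and -1.42, without control replicate 1. Without both ErbB4-/- replicate 3 and control replicate 1 the difference was -1.12 with a standard error of 0.10 (adjusted p = 0.746). The 4 arrays that remain measured 7.57 and 7.50 in ErbB4-/- liver, against 8.54 and 8.77 in control liver. The groups were already separate with every array included, so they had to be separate on these 4. Nothing is read from that separation.

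Nr4a2, or Nurr1, best known from dopaminergic neurons, measured 5.17, 4.75 and 4.99 in ErbB4-/- liver, against 5.22, 4.87 and 4.99 in control liver. Its difference was -0.06 with an interval of -0.40 to 0.29. Nr4a3, or Nor1, measured 5.03, 4.87 and 4.76 in ErbB4-/- liver, against 5.18, 4.53 and 4.70 in control liver, a difference of 0.08 with an interval of -0.37 to 0.53. Without ErbB4-/- replicate 3 and control replicate 1 the differences were 0.03 for Nr4a2 and 0.34 for Nr4a3. The arrays of both groups were interleaved for these genes. Their values, like those of Egr3, were low on this scale, and the arrays' background was not used here. The part of background in such values was not tested.

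Of the KLF factors, none separated the groups without overlap. Klf6, known to be induced by liver injury in stellate and endothelial cells, measured 7.58, 7.61 and 6.71 in ErbB4-/- liver, against 8.30, 7.56 and 7.83 in control liver. Control replicate 2 lay between the ErbB4-/- arrays, and ErbB4-/- replicate 3 lay 0.88 below the mean of its group mates. The difference was -0.59 with a standard error of 0.31 (adjusted p = 0.760), and -0.10 without both ErbB4-/- replicate 3 and control replicate 1. Klf10, a repressor first described as induced by TGF-beta, measured 7.34, 7.06 and 7.19 in ErbB4-/- liver, against 8.86, 7.56 and 7.34 in control liver. The value of ErbB4-/- replicate 1 was equal to that of control replicate 3, and control replicate 1 lay 1.41 above the mean of the other controls. The difference was -0.72 with a standard error of 0.41, and -0.25 without control replicate 1, with or without ErbB4-/- replicate 3. Klf4, a factor of epithelial differentiation and of pluripotency, measured 5.57, 5.45 and 4.99 in ErbB4-/- liver, against 5.91, 5.55 and 5.70 in control liver. Only the highest ErbB4-/- array overlapped with the lowest control array, and the difference was -0.38 with an interval of -0.82 to 0.05. It was -0.21 without ErbB4-/- replicate 3 and -0.12 without control replicate 1 as well.

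Myc, which drives ribosome biogenesis and cell growth, measured 7.54, 7.35 and 6.34 in ErbB4-/- liver, against 7.49, 8.10 and 7.12 in control liver. The highest ErbB4-/- array exceeded control replicates 1 and 3, and ErbB4-/- replicate 3 was the lowest of all. The difference was -0.49 with a standard error of 0.40 (95% interval -1.49 to 0.50, adjusted p = 0.770), -0.12 without ErbB4-/- replicate 3 and -0.16 without control replicate 1 as well. Unlike Egr2, Nr4a1 and Klf10, Myc was not highest in control replicate 1, which lay 0.11 below the mean of the other controls.

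The 10 members varied more between mice of the same genotype than most genes. Their median SD within groups was 0.51, against 0.13 over all genes, and 6 of the 10, Egr1, Egr2, Nr4a1, Klf6, Klf10 and Myc, exceeded 0.28, the 90th percentile over all genes. Much of it came with the arrays that stand apart. The lowest of the 6 values was that of ErbB4-/- replicate 3 for 6 of 10 members, against 20.2% of all genes, and the highest was that of control replicate 1 for 8 of 10, against 16.1% of all genes. Both held for 5 of 10, against 4.63% of all genes. Each member was next set against its own mean over the 6 arrays. The average of these deviations was -0.04, -0.15 and -0.79 in ErbB4-/- replicates 1 to 3, and 0.70, 0.18 and 0.10 in control replicates 1 to 3. The ErbB4-/- arrays were thus below all controls, with the gap between ErbB4-/- replicate 1 and control replicate 3 small beside the spread within each group. Without ErbB4-/- replicate 3 and control replicate 1 the median difference of the members was -0.14, against 0.01 over all genes. Of the 8 negative differences, 7 were still negative without these arrays, the exception being Nr4a2 at 0.03. On the 4 arrays that remain, 3 members had separate groups with lower ErbB4-/- values, against 12% of all genes, and 1, Nr4a3, with higher values, against 15.4% of all genes. The share for higher values is near that of all genes, and nothing is read from it. The 3 with lower values, Egr1, Egr2 and Nr4a1, were already separate on 6 arrays and so had to be separate on 4.

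**Figure D2:**
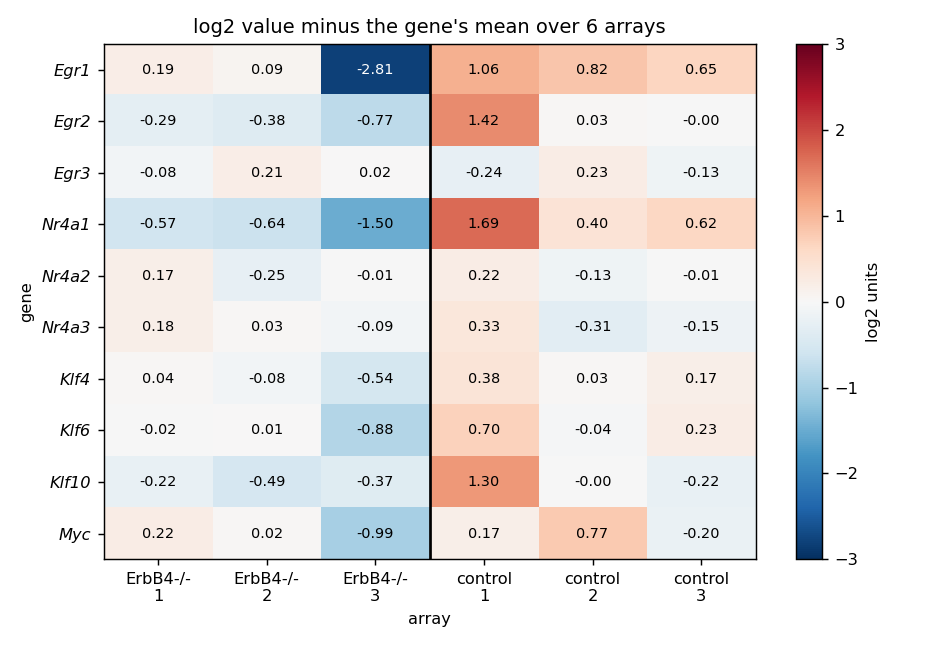
Log2 value of each gene minus that gene's mean over the 6 arrays, with ErbB4-/- arrays left of the line and control arrays right of it. Blue is below and red above the gene's mean. The deepest blue is Egr1 in ErbB4-/- replicate 3, at -2.81, and the strongest red is Nr4a1 in control replicate 1, at 1.69.

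The sign of most of these values changed when the week of dissection was added to the fit. The weeks given follow the replicate numbers within each group, so the week term cannot be told apart from replicate order. With the weeks of the treatment characteristic as a further term, 8 of 10 differences had the other sign, among them Egr1 at 0.87 with a standard error of 1.37 and Klf10 at 0.53 with a standard error of 0.66. Nr4a1 kept a negative difference, -0.32 with a standard error of 0.56. No member passed in that fit (limma, adjusted p between 0.994 and 0.997). Week and genotype are nearly confounded, since every week given for an ErbB4-/- mouse is later than every week given for a control. The fit therefore cannot separate age from genotype, and nothing is read from its signs.

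**Figure D3:**
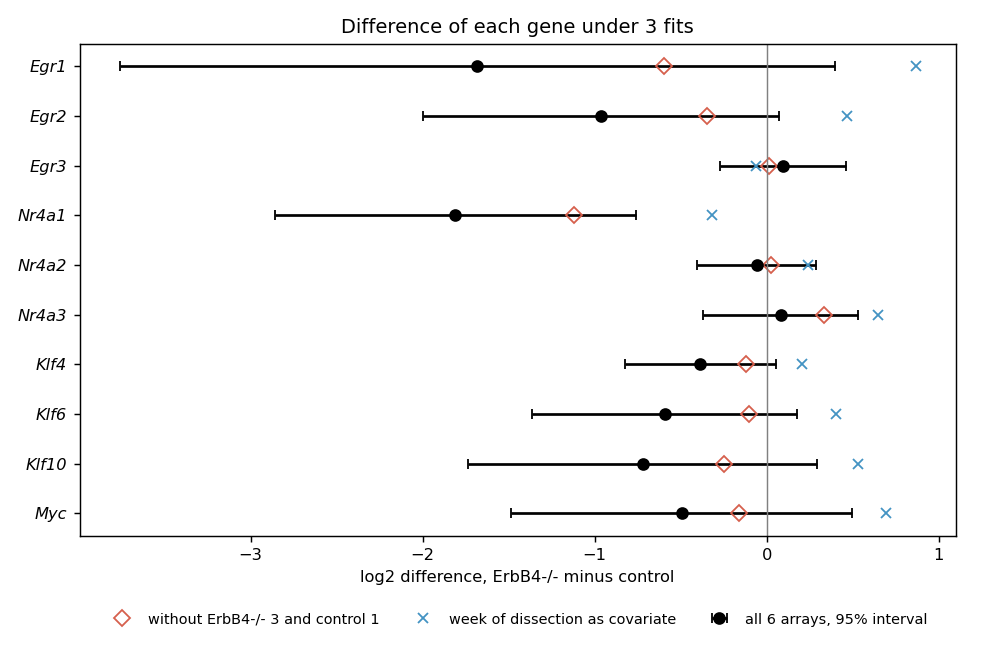
Log2 difference of each gene, ErbB4-/- minus control. Filled points are the fit on 6 arrays with the 95% interval, open diamonds the fit without ErbB4-/- replicate 3 and control replicate 1, and crosses the fit with week of dissection added. Nr4a1 is left of 0 in all 3 fits and its interval on 6 arrays ends at -0.76, while the intervals of the other 9 genes include 0.

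The factors that are known to switch these genes on showed no common direction. Of 14 measured genes for SRF, its partners, CREB factors and ERK pathway kinases, 8 had values below 0 and 6 above, with a median of -0.02, and of 0.04 without both arrays that stand apart. By limma 0 passed, here and in each list that follows, and 0 of the 14 had an unadjusted p under 0.05. Srf itself measured 7.13, 6.83 and 6.39 in ErbB4-/- liver, against 7.85, 7.05 and 7.05 in control liver. Its difference of -0.54 had a standard error of 0.29 and was -0.07 without both arrays, and its highest ErbB4-/- array lay above control replicates 2 and 3. Rps6ka3, a kinase downstream of ERK, had no overlap between groups, with 6.97 ± 0.08 in ErbB4-/- and 7.12 ± 0.06 in control liver and a difference of -0.16. Creb1 had a difference of 0.18 and Creb3l3, a liver-enriched factor of the fasting response, of 0.24, and each of 0.07 without both arrays.

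The other KLF genes lay on both sides of 0. Of 14 measured, 9 had values below 0, the median was -0.09 (-0.08 without both arrays) and 4 had an unadjusted p under 0.05, all lower, against 2.94% of all genes. In 2 of the 14 every ErbB4-/- value lay below every control value, against 3.81% of all genes. Klf9, a glucocorticoid-responsive factor of hepatocytes, measured 9.77, 9.65 and 10.02 in ErbB4-/- liver, against 10.31, 10.15 and 10.30 in control liver, which differ by -0.44 (standard error 0.11). In Klf9 the lowest array was ErbB4-/- replicate 2, not replicate 3. Klf3, a repressor that binds CACCC boxes, measured 7.29, 7.27 and 7.55 in ErbB4-/- liver, against 7.62, 7.60 and 8.07 in control liver, which differ by -0.39 (standard error 0.16). Klf7 had a difference of -0.30 and Klf14 of -0.27, both with overlap between the groups.

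In the network of MYC partners and antagonists, 4 of 12 measured genes had values below 0 and 8 above, and the median was 0.05, and -0.0062 without both arrays. At an unadjusted p under 0.05, 1 was lower and 1 higher, against 2.94% and 2.77% of all genes. The MXD proteins compete with MYC for MAX. Mxd1 measured 7.68, 7.58 and 7.85 in ErbB4-/- liver, against 8.33, 7.87 and 8.09 in control liver, which differ by -0.39 (standard error 0.14). Mxd4 had higher values, with 8.07, 7.99 and 8.04 in ErbB4-/- liver, against 7.63, 7.92 and 7.82 in control liver, which differ by 0.24 (standard error 0.08), and by 0.16 without both arrays that stand apart. The groups overlapped for neither gene, and neither passed (adjusted p = 0.760 for both).

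Genes reported as targets of these factors had small differences as lists. Of 12 reported EGR1 targets, 9 had values below 0, against 45.3% of all genes, with a median of -0.18 (-0.08 without both arrays that stand apart). An unadjusted p under 0.05 was found for 2, both lower, against 2.94% of all genes. Tgfb1, the transforming growth factor, measured 6.97, 6.58 and 6.65 in ErbB4-/- liver, against 7.03, 7.05 and 7.001 in control liver, a difference of -0.29. Pdgfa, a growth factor for mesenchymal cells, measured 6.65, 6.67 and 6.58 in ErbB4-/- liver, against 6.53, 6.45 and 6.53 in control liver, a difference of 0.13. Of 22 MYC targets in growth and ribosome biogenesis, 8 had values below 0 and 14 above, with a median of 0.03 (-0.04 without both arrays). An unadjusted p under 0.05 was found for 1 lower and 1 higher, against 2.94% and 2.77% of all genes. These counts are near those shares, and nothing is read from them. The spermidine synthase gene Srm differed by 0.32 (0.20 without both arrays) and the transferrin receptor gene Tfrc by -0.85, each without overlap between the groups. The 5 hepatic glucose genes linked to NR4A receptors, G6pc, Fbp1, Fbp2, Eno3 and Pck1, had a median of -0.03 (0.06 without both arrays), 0 had separate groups and 0 had an unadjusted p under 0.05. Pck1, the enzyme that commits carbon to gluconeogenesis, measured 12.71 ± 0.50 in ErbB4-/- and 12.93 ± 0.41 in control liver (SD, n = 3 each), a difference of -0.22, and of -0.33 without both arrays.

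Most of the other immediate early genes had values on the same side as the members. Of 29 measured, 28 had values below 0, against 45.3% of all genes, and the median was -0.78. At an unadjusted p under 0.05, 10 were lower, against 2.94% of all genes, and 0 were higher. The groups did not overlap for 15 of the 29, all with lower ErbB4-/- values, against 3.81% of all genes. The lowest value was in ErbB4-/- replicate 3 for 23 of 29 and the highest in control replicate 1 for 24 of 29, and without these arrays the median was -0.25. Csrnp1, a nuclear protein of the early response, measured 6.02, 5.64 and 5.74 in ErbB4-/- liver, against 7.61, 6.96 and 7.23 in control liver, and its difference of -1.47 had a standard error of 0.19 (adjusted p = 0.549). Trib1, a pseudokinase that controls C/EBP factors, measured 8.53, 8.22 and 8.11 in ErbB4-/- liver, against 9.996, 9.05 and 9.52 in control liver, which differ by -1.24 (standard error 0.26). Gadd45g, a stress-induced growth regulator, measured 7.88, 8.34 and 6.46 in ErbB4-/- liver, against 9.60, 9.53 and 9.25 in control liver, with the lowest value again in ErbB4-/- replicate 3. The members and this list were chosen with earlier results of these data known, so their common direction is no independent support.

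**Figure D4:**
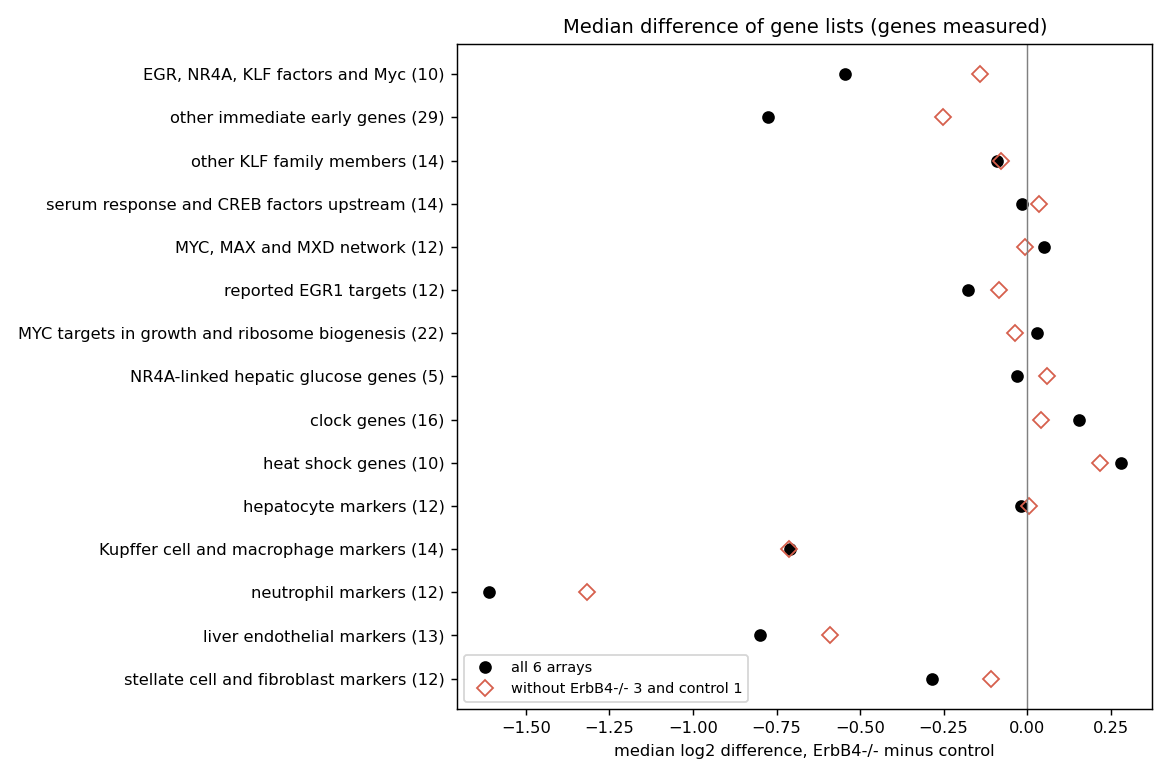
Median log2 difference, ErbB4-/- minus control, of gene lists, with the number of genes measured in brackets. Filled points use 6 arrays, and open diamonds leave out ErbB4-/- replicate 3 and control replicate 1. The members are at -0.54 with 6 arrays and -0.14 without both, and the other immediate early genes at -0.78 and -0.25, while Kupffer cell and macrophage markers are at -0.71 in both.

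Marker genes of several cell types other than hepatocytes had lower values beside those of the members. In bulk tissue, fewer cells of a type and less RNA per cell cannot be told apart. All 14 measured Kupffer cell and macrophage markers had values below 0, with mean levels of 7.52 to 8.29 on the ErbB4-/- arrays and 8.64 to 8.91 on the control arrays, a median difference of -0.71, and 11 had an unadjusted p under 0.05. Neutrophil markers had values below 0 for 12 of 12, with mean levels of 4.64 to 4.997 in ErbB4-/- and 5.29 to 7.19 in control liver and the highest value in control replicate 1 for 9 of 12. Liver endothelial markers had values below 0 for 13 of 13, with mean levels of 6.96 to 8.17 in ErbB4-/- and 8.14 to 8.57 in control liver, and all 13 were lowest in ErbB4-/- replicate 3. Stellate cell and fibroblast markers had values below 0 for 11 of 12 and mean levels of 6.88 to 7.41 in ErbB4-/- and 7.40 to 7.48 in control liver. At an unadjusted p under 0.05 there were 10 of 12 neutrophil, 6 of 13 endothelial and 2 of 12 stellate markers, all lower. Over all genes 2.94% were lower at that threshold, and 45.3% had values below 0. The median differences were -1.61, -0.80 and -0.28 for these lists, and -1.32, -0.59 and -0.11 without ErbB4-/- replicate 3 and control replicate 1. Hepatocyte markers had a median difference of -0.02, and of 0.0062 without both. The medians were -0.05 for T and NK cell, -0.07 for B and plasma cell, -0.01 for cholangiocyte and 0.02 for pancreas and intestine markers. Without both arrays they were -0.05, -0.07, 0.03 and 0.07. The 1 measured erythroid marker, Slc4a1, had a difference of -0.24, and of -0.25 without both. Some markers were low on this scale, such as Ly6g at 3.11 ± 0.20 in ErbB4-/- and 4.28 ± 0.55 in control liver (SD, n = 3 each). No measure of background was used for them. The part of these cell types in the values of the members was not tested.

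Clock and heat shock lists were read beside the members. Clock genes, several of which respond to the same signals, had values below 0 for 7 of 16 and above 0 for 9, with a median of 0.16 (0.04 without both arrays that stand apart), and 0 had an unadjusted p under 0.05. Per1, which is also an immediate early gene, measured 6.77, 7.65 and 8.53 in ErbB4-/- liver, against 9.17, 8.11 and 8.44 in control liver, so that ErbB4-/- replicate 3, the lowest array for Egr1, Nr4a1 and Myc, was the highest ErbB4-/- array for Per1. Heat shock genes, which are also induced quickly, had values above 0 for 9 of 10 with a median of 0.28 (0.22 without both arrays) and 3 with an unadjusted p under 0.05, against 2.77% of all genes higher. In all, 4 of the 10 had every ErbB4-/- value above every control value, against 4.52% of all genes. Hspa1b, an inducible HSP70 chaperone, measured 8.71 ± 0.17 in ErbB4-/- and 5.95 ± 0.75 in control liver (SD, n = 3 each), a difference of 2.76 (adjusted p = 0.560).

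The genes whose profile over the 6 arrays was most like the mean profile of the members were found by root mean square distance in log2 units after each gene was centred on its own mean. The 8 nearest were Pdgfra at 0.10, Gmds at 0.11, Efna1 at 0.11, Srf at 0.12, Rell1 at 0.13, Irak3 at 0.13, Hgf at 0.13 and Csf2rb2 at 0.13. Klf6 was the nearest member, also at 0.13, and Egr1 the farthest, at 0.91. Pdgfra, a receptor of mesenchymal cells, measured 6.76, 6.50 and 5.75 in ErbB4-/- liver, against 7.24, 6.77 and 6.84 in control liver. Hgf, the hepatocyte growth factor made by stellate and endothelial cells, measured 7.96, 7.67 and 7.37 in ErbB4-/- liver, against 8.59, 8.03 and 8.19 in control liver. In the mean profile every ErbB4-/- array lies below every control array, so a lack of overlap among these genes is largely fixed by how they were chosen. It was seen for Pdgfra, Hgf, Efna1, Irak3 and Csf2rb2, and Gmds, Srf and Rell1 overlapped. None of the 8 passed (adjusted p = 0.760 for each).

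**Figure D5:**
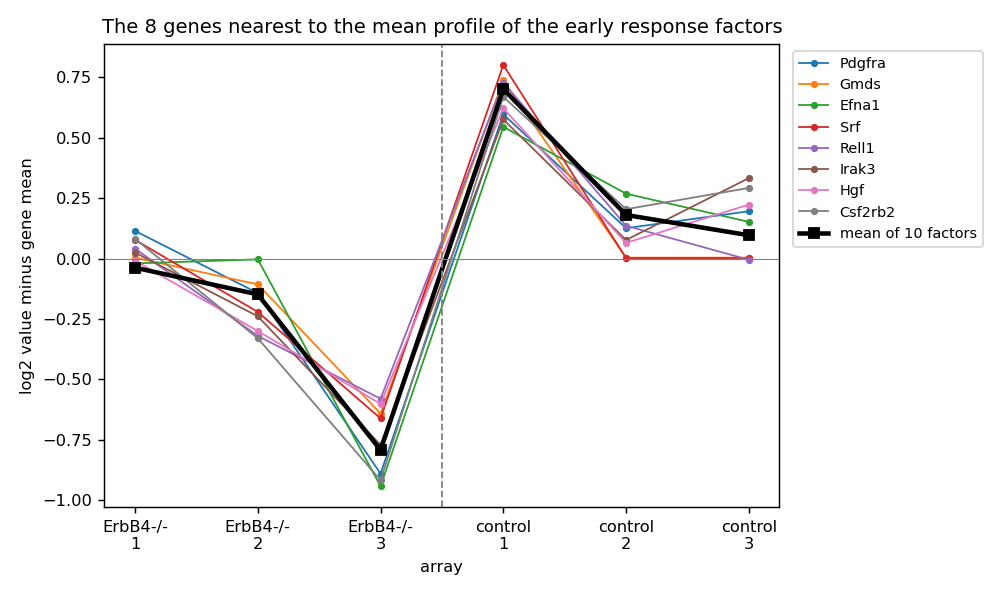
Log2 value minus the gene's own mean for the 8 genes nearest to the mean profile of the 10 early response factors, with ErbB4-/- arrays left of the broken line and control arrays right of it. Thin lines are single genes and the thick line is the mean of the 10 factors, which runs between -0.79 in ErbB4-/- replicate 3 and 0.70 in control replicate 1. Srf, which switches on immediate early genes, is among the 8.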

How the data were processed

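Liver RNA (Trizol) was turned into biotin-labelled cDNA with Affymetrix WT kits, per the labels' protocols. The authors deposited log2 values, already processed by the authors. The log base was read from the range of the values, and their background correction, normalization and summarisation are not given in the sources used here. Of 41345 probe sets, 23521 have 1 gene symbol in the platform annotation, 1814 several, and 16010 are unnamed here. Per gene the probe set with the highest mean over 6 arrays was used, leaving 22180 genes, with no filter on dim probe sets. The 6 arrays limit the precision: the median standard error of a difference was 0.10 over all genes and 0.35 over the members.

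Differences were tested two-sided with lmFit and eBayes of limma 3.58.1 (R 4.3.3), genotype as the only term, and Benjamini-Hochberg adjustment over all genes at a threshold of 0.05. The code was checked on simulated data. With 3 arrays a group, exact permutation reaches no p under 0.10 and was not run. The labels call the mice biological replicates. The members, the lists and the alternatives were chosen with earlier results of these data known. Named genes are the members, the EGR family and corepressors, at most 4 genes of each other list with the smallest p, the 8 genes nearest to the mean profile, and Erbb4; lists were described by counts and medians. Alternatives were renormalization by quantiles, centring on array medians, dropping genes under the median level, averaging a gene's probe sets, testing all 41345 probe sets, array weights, a robust prior with trend, the replicate block, adding the week, leaving out each array, and leaving out ErbB4-/- replicate 3 and control replicate 1 together. The planned pseudocount does not apply to log2 values. Promoter windows came from RefSeq (GRCm38.p6). Figures were drawn with matplotlib 3.10.9.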

Additional observations from a re-analysis of the deposited data

How the results depend on the processing

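No member passed under any of the 16 alternatives (limma, adjusted p between 0.568 and 1 over 157 values), and 144 of these values kept the sign of the full fit. The other 13 changed sign. Some signs could not change. Each kept member's difference stays that of the full fit when genes under the median level are dropped or probe sets are averaged. The same holds for testing all probe sets, the robust prior with trend and the replicate block. With week of dissection in the fit the differences were 0.87 for Egr1, 0.47 for Egr2, -0.061 for Egr3, 0.24 for Nr4a2, 0.21 for Klf4, 0.41 for Klf6, 0.53 for Klf10 and 0.69 for Myc, and the median over the members was 0.44. The week term follows replicate order within each group, so nothing is read about age from these values. Nr4a2 turned to 0.037 without control replicate 1, 0.052 without ErbB4-/- replicate 2 and 0.026 without both ErbB4-/- replicate 3 and control replicate 1; Egr3 turned to -0.0026 without control replicate 1 and Nr4a3 to -0.051 without control replicate 2. With single arrays left out Egr3 ran up to 0.23, Nr4a3 up to 0.27 and Nr4a2 down to -0.16. The cause was not tested. Nr4a1 kept its sign under all 16, including the settings that could not change it. Leaving out each array in turn gave a median between -0.73, without ErbB4-/- replicate 1, and -0.26, without ErbB4-/- replicate 3, and without both arrays that stand apart it was -0.14. The number of members with separate groups and lower ErbB4-/- values ran from 3 to 5, and that with higher values from 0 to 1, as arrays were left out singly, against 6.82% to 8.47% of all genes lower and 8.1% to 10.6% higher in these settings. Without both arrays the count with higher values was 1, against 15.4% of all genes. Dropping genes under the median level removed Egr3, Nr4a2 and Nr4a3. With the replicate number as a block every difference was as in the full fit and 0 members passed (Nr4a1 at -1.81, limma adjusted p = 0.780). Same-numbered arrays had correlations of -0.10, 0.03 and -0.05 between their deviations from the group means. Differently numbered arrays had -0.08 to 0.10. These values show no sign that the numbers pair the mice, and with so few arrays they cannot exclude it. No measure of signal over background was used here, which limits what the low values of Egr3, Nr4a2 and Nr4a3 can show.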
